A study of Mus musculus with 7 samples.

Results

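Npy2r, Tacr1, Rxfp1 and Ramp3 are 4 of the 297 genes whose transcripts were counted in single segmented cells of mouse brain sections by Xenium, an imaging method that reads gene-specific probes in place in the tissue. The 4 genes were chosen by name: 3 neuropeptide receptors and a receptor accessory protein. The panel holds other peptide receptors, such as Oprm1 and Ntsr2, which are given only in a gene list. All 4 were measured and passed the filter on low counts in every comparison of classes and positions. They were followed through 384076 cells of 7 fresh-frozen coronal hemisections, each 10 µm thick, from wild-type (WT) mice, with no treatment named, and sex and age are not used here. The sections were cut through the anterior thalamic nuclei at 3 positions: 2 anterior sections (bregma -0.58 mm, replicates 1 and 2), 2 intermediate sections (-0.70 to -0.82 mm, replicates 1 and 2) and 3 posterior sections (-0.94 mm, replicates 1, 3 and 4). Replicates 1 and 2 were on 1 slide and replicates 3 and 4 on another. The labels do not say which sections come from separate animals, so the p-values speak of the spread among sections only, and that spread may be technical. A hemisection also holds cortex, striatum, hypothalamus and other regions, and positions of cells were not used here, so a class of cells is defined by its transcripts and not by its place.

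Npy2r encodes a receptor for neuropeptide Y and peptide YY that couples to inhibitory G proteins and often sits on axon terminals, where it reduces transmitter release. Tacr1 encodes the neurokinin 1 receptor, the main receptor of substance P, and Rxfp1 encodes the relaxin receptor; both are excitatory in many neurons. Ramp3 is no receptor itself: it is a single-pass membrane protein that joins the calcitonin receptor or the calcitonin receptor-like receptor and sets whether the complex responds to adrenomedullin, amylin or related peptides. In the brain Tacr1 is best known from cholinergic neurons and a sparse type of cortical neuron that makes somatostatin, nitric oxide and Chodl. The genes for the main ligands of these proteins and for the partner receptors of Ramp3 were not among the genes measured.

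In comparisons given below, Npy2r and Tacr1 were each higher in cells positive for the other, and Ramp3 was lower in cells positive for either. This was tested in VGLUT2, VGLUT1 and GABA cells and not within marker groups, and in VGLUT1 cells the Tacr1 level of the class is read as background. As a group, GABA cells with Sst were high in Npy2r, Tacr1 and Ramp3. The 250 bases before the start of the RefSeq transcript are shown for the 3 of the 4 genes that matched the RefSeq promoter table (GRCm38.p6), 5′ to 3′ on the strand of the gene. Capitals mark the GC box (GGGCGG, searched on both strands, so that CCGCCC is a match on the other strand). Npy2r lies at chr3:82548086-82548335 on the minus strand, Tacr1 at chr6:82402225-82402474 on the plus strand and Ramp3 at chr11:6658283-6658532 on the plus strand. Rxfp1 is named only.
Npy2r: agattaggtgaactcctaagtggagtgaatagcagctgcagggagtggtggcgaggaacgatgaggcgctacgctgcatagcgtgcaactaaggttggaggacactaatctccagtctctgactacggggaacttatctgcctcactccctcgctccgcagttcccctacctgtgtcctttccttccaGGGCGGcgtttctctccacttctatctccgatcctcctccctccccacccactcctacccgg
Tacr1: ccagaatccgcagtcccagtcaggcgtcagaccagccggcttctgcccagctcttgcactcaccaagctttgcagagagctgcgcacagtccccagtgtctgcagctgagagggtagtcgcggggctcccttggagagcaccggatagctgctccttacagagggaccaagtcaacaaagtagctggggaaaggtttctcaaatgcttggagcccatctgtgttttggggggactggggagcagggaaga
Ramp3: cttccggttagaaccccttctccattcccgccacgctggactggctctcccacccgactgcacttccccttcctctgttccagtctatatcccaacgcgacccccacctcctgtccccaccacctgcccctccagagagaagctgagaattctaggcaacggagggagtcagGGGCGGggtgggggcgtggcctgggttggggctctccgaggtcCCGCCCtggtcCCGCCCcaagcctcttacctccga
The window of Ramp3 held 3 GC boxes, 78, 35 and 24 bases before the start, that of Npy2r held 1, 62 bases before the start, and that of Tacr1 held none. Of 32851 promoter windows of this length in the table, 32.74% held a GC box. None of the 3 windows held the cAMP response element TGACGTCA (1.546% of all windows), the E-box CACGTG (6.021%), the letters CCAAT (33.85%) or the letters TATAAA (12.37%), each searched on both strands. GC content was 56.8% for Npy2r, 58.8% for Tacr1 and 65.2% for Ramp3, against a median of 52.4% over all windows. These matches describe letters in the windows and were not tested against the levels.

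Cells were put into 4 classes by their own transcripts. VGLUT2 cells had at least 5 transcripts of Slc17a6, the vesicular glutamate transporter of most thalamic neurons (17620 cells). VGLUT1 cells had at least 5 of Slc17a7, the transporter of most cortical and hippocampal excitatory neurons (80355 cells), GABA cells at least 5 of Gad1 and Gad2 together (83669 cells), and vascular cells at least 3 of Cldn5, an endothelial tight junction gene (19570 cells). A cell entered a class only if it met that rule and none of the other 3. Whatever other rules they met, 43785 cells met the VGLUT2 rule, 144175 the VGLUT1, 139699 the GABA and 47630 the vascular rule. The VGLUT1 rule was also met by 37.4% of cells meeting the VGLUT2 rule and 28.4% of those meeting the GABA rule. Levels of a class thus describe the cells that met its rule only. Outside the 4 classes, 11432 cells met the rules for both transporters and no other, and they are described apart. Another 70836 cells met other combinations and 100594 met none.

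Depth and foreign transcripts differed between the classes. The sections held 50169 to 60720 cells each, with a median of 278 to 390 transcripts per cell, and the median was 430 in VGLUT2, 440 in VGLUT1, 379 in GABA and 212 in vascular cells. All 6 measured genes of the astrocyte list were detected in every class. Their summed level was 14.2 to 19.9 transcripts per cell by section in VGLUT2 cells, 10.2 to 15.3 in VGLUT1, 13.5 to 16.1 in GABA and 9.06 to 12.8 in vascular cells. The 5 oligodendrocyte genes summed to 5.55 to 10.0, 3.88 to 5.28, 6.90 to 8.96 and 3.33 to 5.34 in the same order, and the 10 endothelial genes to 1.42 to 1.89, 1.45 to 1.71, 1.52 to 1.83 and 36.2 to 42.7. The part of these transcripts in the differences between classes was not tested beyond a repeat with the 585 VGLUT2, 6591 VGLUT1 and 3539 GABA cells that held fewer than 3 such transcripts; vascular cells stayed unfiltered in that repeat. Classes were compared on counts summed per section and class with edgeR's quasi-likelihood test, with the section as a block, TMM scaling and Benjamini-Hochberg adjustment over all 297 genes at 0.05, and log2 differences are given with their SE. Levels are transcripts per cell, and levels of different genes are not compared because each gene has its own probes.

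The 4 genes had 4 different orders over the classes. Tacr1 was high in GABA and VGLUT2 cells and lowest in VGLUT1 cells, Npy2r was highest in GABA cells, Rxfp1 was highest in VGLUT1 cells, and Ramp3 was highest in VGLUT2 cells. Of 24 differences (4 genes in 6 pairs of classes), 22 passed. Such calls were common on this panel: all 4 genes passed between VGLUT2 and VGLUT1 cells, where 83.5% of all genes did, between VGLUT2 and GABA cells (76.8%), between VGLUT2 and vascular cells (90.9%) and between VGLUT1 and GABA cells (80.8%). In the comparisons of VGLUT1 with vascular cells (91.9%) and of GABA with vascular cells (86.9%), 3 of the 4 passed. The counts of members are thus near the background of the panel, and the order of the classes and the sizes follow.

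**Figure D1:**
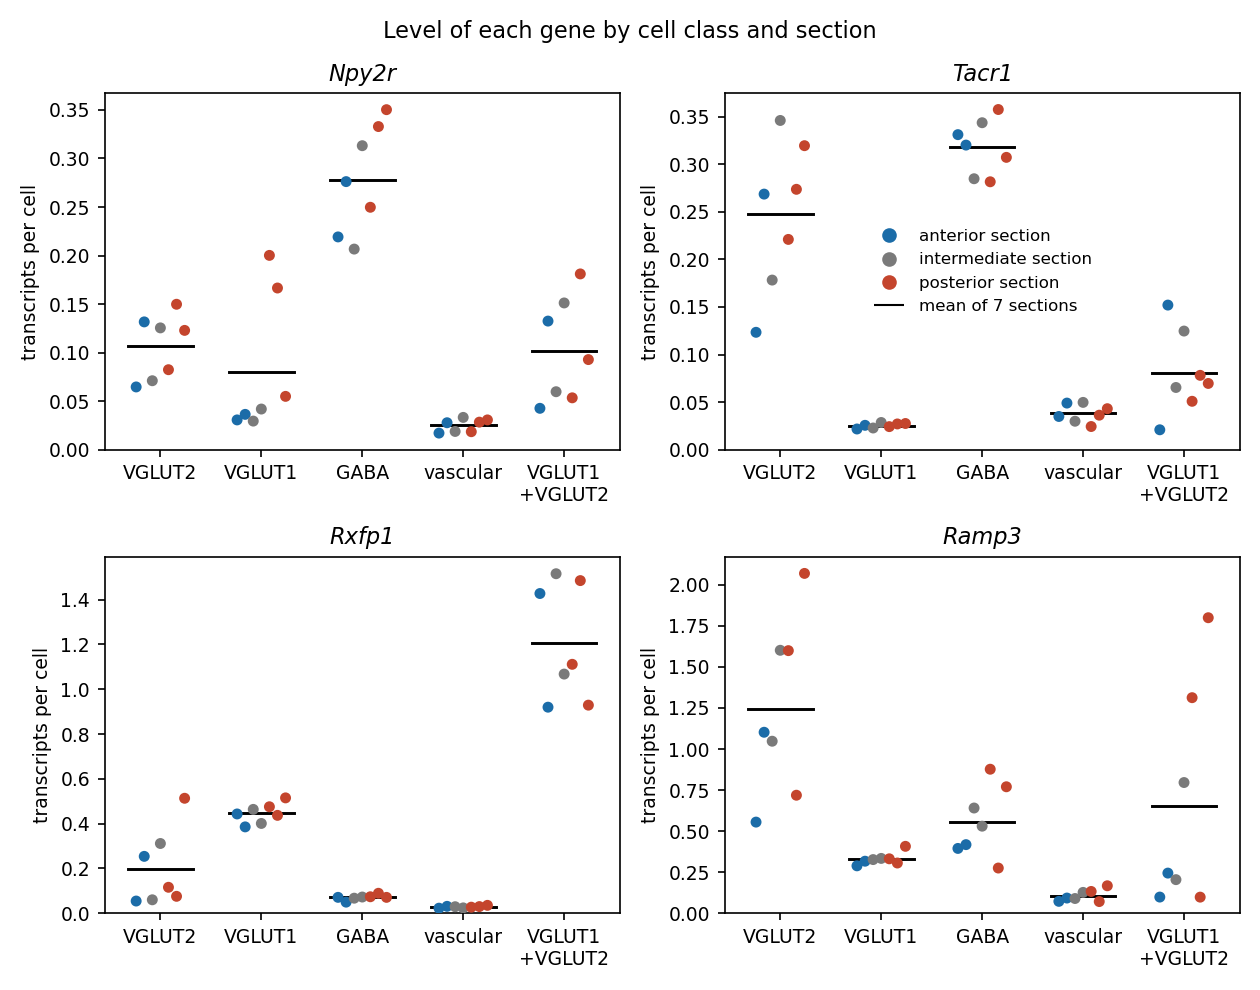
Transcripts per cell of each gene (linear vertical axes that start at 0) in VGLUT2, VGLUT1, GABA and vascular cells and in cells with both glutamate transporters; each point is 1 section, coloured by position, and the line is the mean of 7 sections. Tacr1 lies at 0.0217 to 0.0286 in VGLUT1 cells in every section, while Ramp3 in VGLUT2 cells spreads from 0.555 to 2.07.

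Npy2r was highest in GABA cells, at 0.207 transcripts per cell in the lowest section, 0.276 in the median and 0.350 in the highest. In VGLUT2 cells it lay between 0.0646 and 0.150 with a median of 0.123, and in vascular cells between 0.0171 and 0.0332 with a median of 0.0277. The 7 GABA values lay above all 7 VGLUT2 values. In VGLUT1 cells the values ran from 0.0294 to 0.20 with a median of 0.0419, and they overlapped with those of VGLUT2 cells because posterior replicates 1 (0.20) and 3 (0.167) stood above the other 5 sections, which lay at or below 0.0549. GABA cells exceeded VGLUT1 cells (VGLUT1 minus GABA -2.11 ± 0.31, adjusted p = 1.28e-06, edgeR), VGLUT2 cells (VGLUT2 minus GABA -1.44 ± 0.30, adjusted p = 0.00012) and vascular cells (2.57 ± 0.32, adjusted p = 9.79e-08). VGLUT2 cells exceeded vascular cells by 1.13 ± 0.32 (adjusted p = 0.00206, edgeR), and VGLUT1 and vascular cells differed by 0.46 ± 0.32, which did not pass (adjusted p = 0.169). The former was 0.48 and did not pass with looser class thresholds (adjusted p = 0.199); the latter passed with the number of cells as library size (1.45, adjusted p = 0.000202), with VGLUT1 cells of few foreign transcripts (1.01, adjusted p = 0.0237) and with sums per replicate number (0.79, adjusted p = 0.0483).

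The difference of Npy2r between VGLUT2 and VGLUT1 cells was near the threshold (0.66 ± 0.30, adjusted p = 0.0479, edgeR) and did not hold: it was lost on leaving out either anterior section (0.46 without replicate 1, 0.47 without replicate 2), either intermediate section (0.58 without replicate 1, 0.51 without replicate 2) or posterior replicate 4 (0.57), and was -0.033 with looser class thresholds. The lead of GABA over VGLUT2 cells was -0.95 with an adjusted p of 0.0984 in the cells with few foreign transcripts.

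Tacr1 separated VGLUT1 cells from the other neurons. VGLUT2 cells held 0.123 transcripts per cell in the lowest section, 0.269 in the median and 0.346 in the highest. VGLUT1 cells held 0.0217, 0.0256 and 0.0286. Every VGLUT2 section thus lay above every VGLUT1 section, and the fitted difference was 3.27 ± 0.14, a 9.65-fold ratio (adjusted p = 5.67e-16, edgeR). In GABA cells the level was 0.282 to 0.358 with a median of 0.320, and it exceeded that of VGLUT1 cells by a ratio of 13.0 (VGLUT1 minus GABA -3.70 ± 0.14, adjusted p = 8.71e-17). Tacr1 was lower in VGLUT1 than in vascular cells, where it was 0.0243 to 0.0497 (-1.55 ± 0.14, adjusted p = 3.06e-10, edgeR). VGLUT2 and GABA cells overlapped; the difference of -0.43 ± 0.13 passed (adjusted p = 0.00364, edgeR) but was -0.037 with stricter class thresholds and -0.052 with overlapping classes, and passed in neither.

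Rxfp1 had the opposite order in the glutamatergic classes. VGLUT1 cells held 0.385, 0.443 and 0.515 transcripts per cell in the lowest, median and highest section, and VGLUT2 cells held 0.0542, 0.116 and 0.513. The VGLUT1 level was higher in each of the 7 sections, though in posterior replicate 4 the levels were 0.515 and 0.513, so the ranges overlapped. GABA cells held 0.0493 to 0.0888 and vascular cells 0.0223 to 0.0349. VGLUT1 cells exceeded GABA cells by 2.62 ± 0.33 (adjusted p = 1.26e-07, edgeR) and vascular cells by 3.04 ± 0.35 (adjusted p = 2.68e-08), and VGLUT2 cells exceeded GABA cells by 1.25 ± 0.33 (adjusted p = 0.00153). VGLUT2 minus VGLUT1 was -1.37 ± 0.33 (adjusted p = 0.000571, edgeR), but 0.12 (adjusted p = 0.103) when cells meeting several rules counted in each class and -0.54 (adjusted p = 0.141) in cells with few foreign transcripts. The difference of GABA minus vascular cells did not pass (0.41 ± 0.33, adjusted p = 0.250), but did with overlapping classes (0.47, adjusted p = 1.87e-06), with the number of cells as library size (1.36, adjusted p = 0.000608) and with GABA cells of few foreign transcripts (1.10, adjusted p = 0.00156).

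Ramp3 was highest in VGLUT2 cells, at 0.555, 1.10 and 2.07 transcripts per cell in the lowest, median and highest section. It was 0.275 to 0.877 in GABA cells with a median of 0.530, 0.288 to 0.407 in VGLUT1 cells with a median of 0.326, and 0.0707 to 0.167 in vascular cells. All VGLUT2 sections lay above all VGLUT1 sections, and the VGLUT2 and GABA ranges overlapped across sections although the level was higher in VGLUT2 cells in each of the 7 sections. VGLUT2 cells exceeded VGLUT1 cells by 1.81 ± 0.15 (adjusted p = 1.92e-10, edgeR), GABA cells by 1.10 ± 0.15 (adjusted p = 6.03e-07) and vascular cells by 2.53 ± 0.16 (adjusted p = 7.5e-13). GABA cells exceeded VGLUT1 cells (VGLUT1 minus GABA -0.71 ± 0.15, adjusted p = 0.000164, edgeR), though with few foreign transcripts this was -0.25 with an adjusted p of 0.28.

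In some classes the transcripts of a gene were concentrated in few cells. Cells with at least 5 Ramp3 transcripts numbered 1819 of the 17620 VGLUT2 cells and carried 63.9% of the Ramp3 transcripts of the class. For Rxfp1 in VGLUT1 cells, 2165 of 80355 cells carried 48.8%, and for Npy2r in GABA cells 1187 of 83669 cells carried 37.3%. For Tacr1 the share was 38.5% in VGLUT2 and 37.5% in GABA cells. It was lower for Npy2r in VGLUT2 cells (16.1%) and, in VGLUT1 cells, for Npy2r (22.8%), Ramp3 (12.2%) and Tacr1 (2.36%). Tacr1 reached 46 transcripts in a single GABA cell and Rxfp1 42 in a single VGLUT1 cell.

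Shares of cells with at least 1 transcript were read against the vascular cells, which are the shallowest class, both as measured and after thinning. Thinning drew 200 transcripts from each cell that had at least 200, and cells with fewer were left out. The thinned shares thus cover only the deeper cells of each class, and the median vascular cell held 212 transcripts. Tacr1 was found in 10.9% ± 2.89 (SD, n = 7) of VGLUT2 cells, 14.7% ± 1.51 of GABA cells, 2.08% ± 0.199 of VGLUT1 cells and 3.09% ± 0.782 of vascular cells. After thinning these became 7.26%, 9.58%, 0.985% and 2.79%. Tacr1 in VGLUT1 cells was thus below the vascular share, and the level of the class as a whole is read as background. This reading does not cover each cell: 7 VGLUT1 cells held at least 5 Tacr1 transcripts, and the highest held 13. The reading rests on the vascular share alone, and no floor per gene was set. Control probe counts, summed over probes, also differed between classes. Their means over sections were 0.286 per cell in VGLUT1, 0.610 in VGLUT2, 0.767 in GABA and 0.613 in vascular cells. Their part in the levels and in the differences between classes was not tested. Npy2r was found in 12.6% ± 2.21 of GABA, 6.50% ± 1.82 of VGLUT2, 4.42% ± 2.57 of VGLUT1 and 2.10% ± 0.446 of vascular cells, and after thinning in 8.49%, 3.83%, 2.46% and 1.95%. Rxfp1 was found in 16.4% ± 1.39 of VGLUT1, 7.76% ± 5.46 of VGLUT2, 4.22% ± 0.714 of GABA and 2.33% ± 0.307 of vascular cells, and after thinning in 10.8%, 4.82%, 2.47% and 2.09%. Ramp3 was found in 33.1% ± 6.79 of VGLUT2, 19.9% ± 1.65 of VGLUT1, 17.2% ± 3.78 of GABA and 8.57% ± 2.08 of vascular cells, and after thinning in 24.5%, 11.1%, 12.9% and 7.61%. Thinning thus put GABA above VGLUT1 cells for Ramp3, which is the order of the scaled test, and brought GABA and vascular cells close together for Rxfp1.

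Among other genes of peptide and amine signalling, the 20 measured of a fixed list moved in both directions. From VGLUT1 to VGLUT2 cells 11 were higher and 6 lower in VGLUT2 cells (median 0.38, against 0.11 over all 297 genes, of which 131 were higher and 117 lower). Oprm1, the mu-opioid receptor, Chrm2, a muscarinic receptor, and Htr2c, a serotonin receptor, were on the higher side with Npy2r, Tacr1 and Ramp3, and Htr1f, another serotonin receptor, was on the lower side with Rxfp1. From GABA to VGLUT1 cells 3 were higher in VGLUT1 cells (Rxfp1, Htr1f and Vip) and 16 lower (median -1.04, against -0.06 over all genes, 108 higher and 132 lower). Between VGLUT2 and GABA cells 5 were higher and 10 lower in VGLUT2 cells (median -0.55, against 0.00057 over all genes, 118 higher and 110 lower), with Rxfp1 and Ramp3 among the 5. Of 15 cyclic nucleotide, phospholipase C, calcium-binding and activity genes on a second list, 5 were higher and 9 lower in VGLUT2 than in VGLUT1 cells (median -0.46); Pde11a, a phosphodiesterase, and Plch1, a phospholipase C, were higher, and Ppp1r1b, the dopamine signalling protein DARPP-32, was lower.

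Within each class, cells with at least 5 transcripts of a marker gene were compared with the rest of the class (edgeR, section as a block, adjusted over all genes tested). The markers describe cell groups known from these regions, and no anatomical place was assigned.

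**Figure D2:**
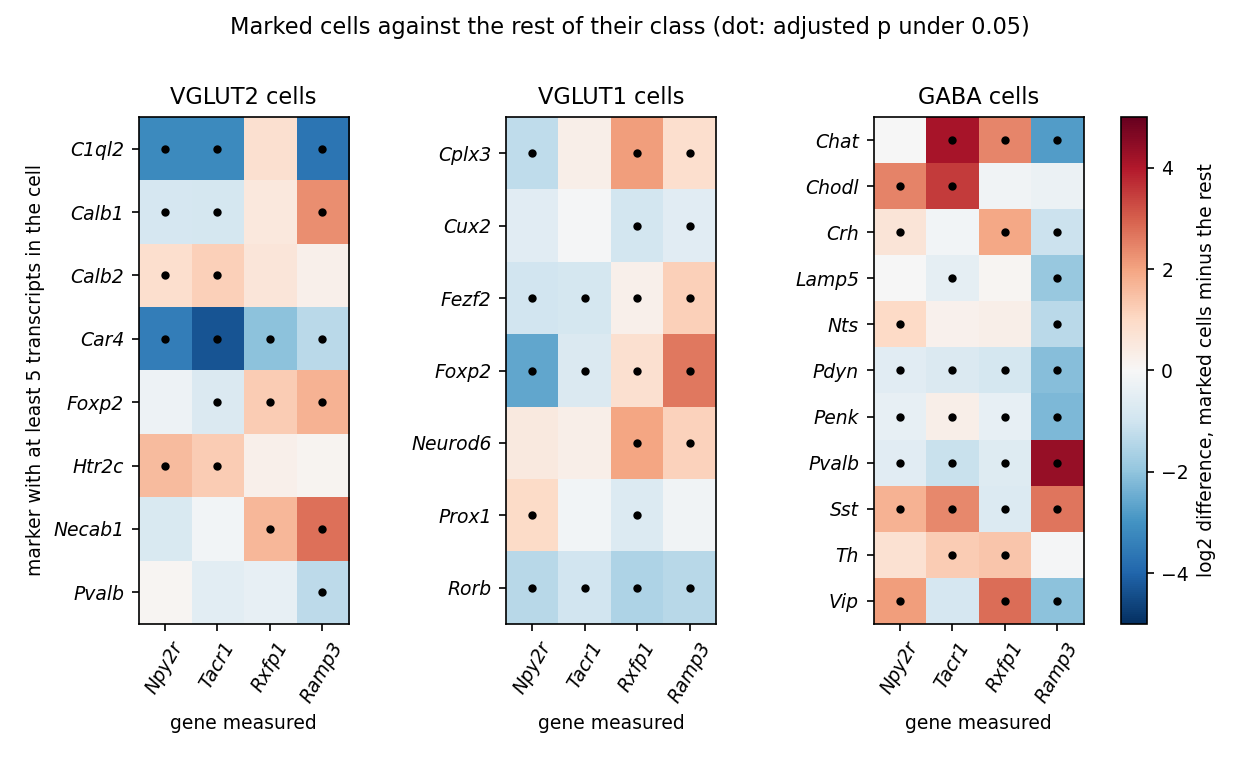
Log2 difference (colour) of each of the 4 genes in cells with at least 5 transcripts of a marker, minus the rest of the same class, for 8 markers in VGLUT2, 7 in VGLUT1 and 11 in GABA cells; dots mark adjusted p under 0.05. In GABA cells Ramp3 is higher in Pvalb and Sst cells (4.36 and 2.68) and lower in 7 other groups, while Tacr1 reaches 4.13 in Chat cells.

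In VGLUT2 cells, the markers with higher Ramp3 were not those with higher Npy2r and Tacr1. Ramp3 was higher in cells with Necab1, a neuronal calcium-binding protein, at 1.57 to 4.25 transcripts per cell by section against 0.0887 to 0.592 in the rest (2.76 ± 0.28, adjusted p = 4.66e-05, edgeR; 41.2% of all genes passed). It was also higher with Calb1 (2.34 ± 0.15; 53.9% passed) and Foxp2 (1.74 ± 0.22; 59.7% passed), in 7 of 7 sections each. It was lower in cells with Car4, a carbonic anhydrase (-1.35 ± 0.31; 82.7% passed), with C1ql2, a marker of the anterodorsal nucleus (-3.64 ± 0.37, 6 sections; 44.8% passed), and with Pvalb (-1.30 ± 0.37; 17.6% passed). For Necab1, Calb1 and Foxp2 the section ranges of Ramp3 in marked cells and in the rest did not overlap. Among these groups, Npy2r and Tacr1 were lower with Calb1 (-0.84 ± 0.29 and -0.87 ± 0.20). Tacr1 was lower with Foxp2 (-0.72 ± 0.26). Npy2r with Foxp2 (-0.27 ± 0.32) and both genes with Necab1 (-0.74 ± 0.35 for Npy2r, -0.13 ± 0.25 for Tacr1) did not pass. At 10 marker transcripts Npy2r passed with Necab1 (-1.32) and not with Calb1 (-0.88), and Tacr1 did not pass with Foxp2 (-0.74).

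Npy2r and Tacr1 were both higher in VGLUT2 cells with Htr2c and with Calb2, where the Ramp3 differences did not pass (0.15 ± 0.36 and 0.27 ± 0.51). With Htr2c, Tacr1 was 0.275 to 0.896 transcripts per cell by section (1.28 ± 0.25, adjusted p = 0.000998, edgeR; 63.4% of all genes passed) and Npy2r was 0.159 to 0.428 (1.60 ± 0.29, adjusted p = 0.000699), each in 6 of 7 sections. With Calb2, calretinin, Tacr1 was higher by 1.20 ± 0.24 and Npy2r by 0.82 ± 0.25 (64.9% passed), and the latter did not pass at 10 transcripts of Calb2 (0.44). Both were lower in Car4 cells: Npy2r was 0.00205 to 0.0233 against 0.0852 to 0.172 (-3.47 ± 0.30, adjusted p = 2.34e-06, edgeR) and Tacr1 0.00205 to 0.0596 against 0.162 to 0.377 (-4.30 ± 0.42, adjusted p = 5.07e-06). C1ql2 cells were low in both as well (-3.17 ± 0.67 and -3.17 ± 0.54). Car4 cells were thus low in all 4 genes, with Rxfp1 at -2.05 ± 0.48.

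Rxfp1 in VGLUT2 cells went with Ramp3 for 2 of the markers. It was higher with Necab1 (1.65 ± 0.35, adjusted p = 0.00421, edgeR), in 5 of 7 sections, and with Foxp2 (1.29 ± 0.40, adjusted p = 0.0191), in 4 of 7; the Foxp2 difference did not pass at 10 transcripts of Foxp2 (1.04) or with the plain library size (0.93). In Necab1 cells the level was 0.0553 in anterior replicate 1, 0.550 in anterior replicate 2, 0.116 and 0.497 in intermediate replicates 1 and 2, and 0.254, 0.0977 and 0.975 in posterior replicates 1, 3 and 4. The sections of replicates 2 and 4 were high at every position, and those of replicates 1 and 3 were low. The same held in the whole VGLUT2 class, where replicates 2 and 4 gave 0.254, 0.311 and 0.513 and replicates 1 and 3 gave 0.0542 to 0.116. In VGLUT1 cells of the same sections Rxfp1 showed no such split, with 0.385, 0.401 and 0.515 in replicates 2 and 4 and 0.437 to 0.475 in replicates 1 and 3. The number of VGLUT2 cells with Necab1 moved with the split in part, from 199 in anterior replicate 1 to 1356 in anterior replicate 2 and from 483 to 1683 in the intermediate sections, and its part in the level was not tested. Section depth split the same way, with medians of 364, 383 and 390 transcripts per cell in replicates 2 and 4 and 278 to 345 in replicates 1 and 3. The part of depth in the level was not tested either.

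In VGLUT1 cells, Ramp3 was higher in 4 of the 7 marker groups, and Rxfp1 in the same 4, of which Fezf2 did not hold for Rxfp1. With Foxp2, a factor of layer 6 corticothalamic neurons, Ramp3 was 1.11 to 1.31 transcripts per cell by section against 0.211 to 0.312 (2.63 ± 0.05, adjusted p = 7.75e-13, edgeR; 85.5% of all genes passed), and Rxfp1 was higher by 0.80 ± 0.07. With Cplx3, a layer 6b marker, Rxfp1 was 1.34 to 1.85 against 0.346 to 0.466 (2.08 ± 0.07, adjusted p = 2.23e-11, edgeR; 81.5% passed) and Ramp3 higher by 0.84 ± 0.09. Neurod6 cells were higher in both (Rxfp1 1.96 ± 0.06, Ramp3 1.15 ± 0.08; 86.2% passed), and so were Fezf2 cells (Ramp3 1.20 ± 0.06, Rxfp1 0.26 ± 0.06; 86.9% passed), although Rxfp1 with Fezf2 was higher in only 4 of 7 sections, was -0.0072 with the plain library size and turned to -0.33 (adjusted p = 0.00586) at 10 transcripts of Fezf2. Rorb cells, of layers 4 and 5, were lower in all 4 genes, from -0.95 ± 0.11 for Tacr1 to -1.56 ± 0.05 for Rxfp1 (82.2% passed). The Tacr1 level of the VGLUT1 class is read as background. Cux2 cells, of upper layers, were lower in Rxfp1 (-0.91 ± 0.15) and Ramp3 (-0.56 ± 0.09), with 78.1% of genes passing; at 10 transcripts of Cux2 the Ramp3 difference was -0.065 and did not pass.

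Npy2r in VGLUT1 cells was lower with Foxp2 (-2.58 ± 0.30, adjusted p = 6.59e-06, edgeR), Rorb (-1.40 ± 0.22), Cplx3 (-1.27 ± 0.23) and Fezf2 (-0.95 ± 0.16). It was higher with Prox1, a factor of dentate granule cells and other neurons (0.97 ± 0.37, adjusted p = 0.042, edgeR; 62.0% of all genes passed), which did not pass at 3 transcripts of Prox1 (0.50). In Prox1 cells Npy2r was 0.431, 0.357 and 0.235 in posterior replicates 1, 3 and 4 and 0.0170 to 0.0539 in the 4 anterior and intermediate sections. In Neurod6 cells it was 0.386 and 0.341 in posterior replicates 1 and 3 but 0.0388 in posterior replicate 4, beside 0.0307 to 0.0390 in the other 4 sections. In Foxp2 cells no section exceeded 0.0168.

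**Figure D3:**
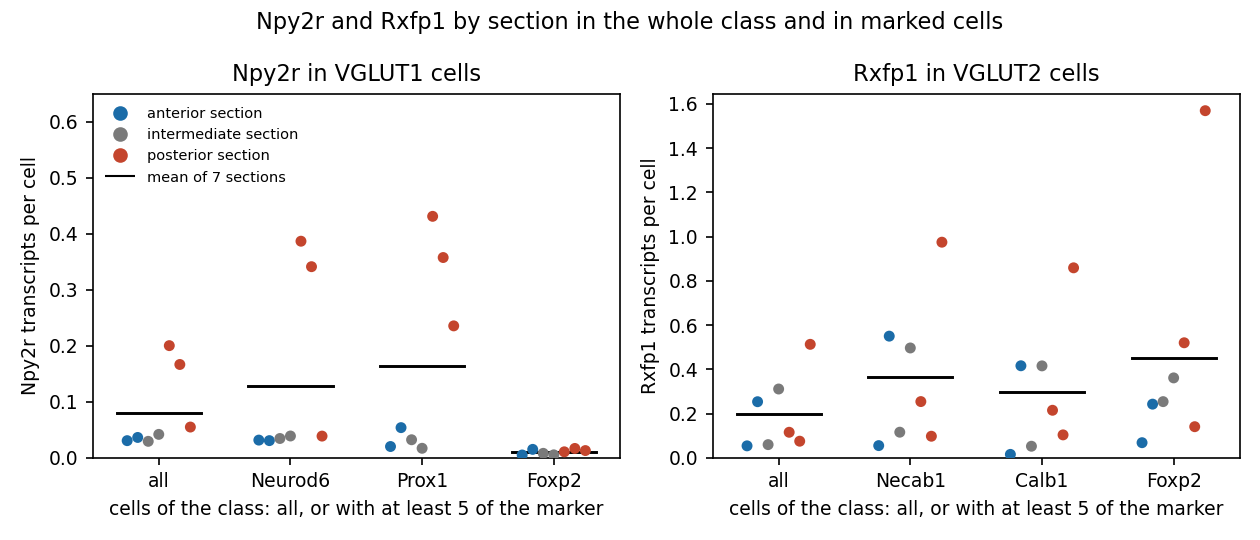
Left, Npy2r transcripts per cell in all VGLUT1 cells and in those with at least 5 transcripts of Neurod6, Prox1 or Foxp2; right, Rxfp1 in all VGLUT2 cells and in those with Necab1, Calb1 or Foxp2; each point is 1 section, coloured by position, and lines are means of 7 sections. Npy2r reaches 0.20 and 0.167 in 2 posterior sections and 0.0549 in the third, and Rxfp1 varies between sections at each position.

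GABA cells held the highest levels of Tacr1 and Npy2r of any marker group. Tacr1 in cells with Chat, the acetylcholine-synthesising enzyme, was 3.79, 4.71 and 6.31 transcripts per cell in the lowest, median and highest section, against 0.206 to 0.287 in the rest (4.13 ± 0.13, adjusted p = 2.15e-11, edgeR; 64.0% of all genes passed). In the 582 cells with Chodl it was 2.78, 3.83 and 4.98 (3.51 ± 0.17, adjusted p = 2.38e-08; 55.9% passed), and in those with Sst, somatostatin, 1.44 to 2.21 (2.41 ± 0.10; 77.8% passed). A Tacr1 transcript was found in 78.9% ± 5.18 (SD, n = 7) of Chat cells and 61.4% ± 6.54 of Chodl cells, and in 61.8% and 49.7% after thinning, at median depths of 497 and 527.5. The highest section of the rest in these 3 comparisons was 0.339. Tacr1 was also higher with Th (1.27 ± 0.36, in 5 of 7 sections, with 44.4% passing). With Penk a difference of 0.29 ± 0.08 passed, but Tacr1 was higher in only 1 of 7 sections (82.2% passed). Tacr1 was lower with Pvalb (-1.12 ± 0.08, with 87.2% passing), Pdyn (-0.72 ± 0.14, with 79.8% passing) and Lamp5 (-0.47 ± 0.11, with 86.2% passing). The Lamp5 difference did not pass at 10 transcripts of Lamp5 (-0.21).

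Npy2r was higher with Chodl, at 1.37, 1.54 and 2.10 transcripts per cell in the lowest, median and highest section (2.48 ± 0.19, adjusted p = 1.14e-06, edgeR), with Vip, the interneuron peptide, at 0.611 to 0.976 (2.10 ± 0.18; 57.6% of all genes passed), with Sst at 0.834 to 1.42 (1.76 ± 0.13) and with Nts, neurotensin (1.0 ± 0.11; 52.2% passed), each in 7 of 7 sections. With Crh Npy2r was higher in 5 of 7 sections (0.64 ± 0.16, with 61.3% passing), which did not pass with the plain library size (0.36). Npy2r was lower with Pvalb, Pdyn (-0.58 ± 0.13) and Penk (-0.40 ± 0.14), the last not at 3 transcripts of Penk (-0.20). Chat cells, the highest in Tacr1, did not differ from the rest in Npy2r (-0.03 ± 0.16, adjusted p = 0.89, edgeR). The groups high in both genes were thus those with Chodl and Sst. A cell can carry both markers, so the 2 comparisons are not independent.

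Ramp3 in GABA cells was higher in the Pvalb and Sst groups. With Pvalb it was 1.11, 2.15 and 2.71 transcripts per cell in the lowest, median and highest section, against 0.0773 to 0.132 in the rest (4.36 ± 0.17, adjusted p = 1.32e-08, edgeR), and with Sst 2.90, 3.22 and 4.47 (2.68 ± 0.16, adjusted p = 9.17e-09). A cell can carry both markers. Under other marker thresholds and scaling, Ramp3 was higher by 0.87 to 2.97 with Sst and by 4.11 to 4.46 with Pvalb. It was lower in 7 of the other 9 groups, from -1.06 ± 0.19 with Crh to -2.81 ± 0.22 with Chat, among them Lamp5 (-1.91 ± 0.19; 86.2% of all genes passed), Penk (-2.26 ± 0.19; 82.2%) and Pdyn (-2.12 ± 0.21), the opioid precursors of striatal projection neurons. Pvalb cells were the only group of the 11 in which Ramp3 was higher while Npy2r (-0.56 ± 0.18), Tacr1 and Rxfp1 (-0.65 ± 0.12) were all lower.

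Rxfp1 in GABA cells had other markers again. It was higher with Vip, at 0.167 to 0.537 transcripts per cell by section against 0.0487 to 0.0852 (2.78 ± 0.24, adjusted p = 1.24e-06, edgeR), with Chat at 0.282 to 0.711 (2.45 ± 0.20, adjusted p = 2.54e-07) and with Crh, corticotropin-releasing hormone, at 0.176 to 0.348 (1.95 ± 0.15, adjusted p = 4.22e-07; 61.3% of all genes passed), each in 7 of 7 sections, and with Th in 5 of 7 (1.38 ± 0.43, adjusted p = 0.0187; 44.4% passed). It was lower with Pvalb, Pdyn, Penk and Sst, and at 10 marker transcripts the differences with Penk (-0.17) and Sst (-0.34) did not pass. Vip cells were thus high in Rxfp1 and Npy2r, and Chat cells in Rxfp1 and Tacr1.

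In cells under all 4 class thresholds, Npy2r was higher in the 16189 cells with Aqp4, the astrocyte water channel. Its level by section was 0.118, 0.131 and 0.224 at the lowest, median and highest, against 0.0212 to 0.0471 in the other cells of no class, with no overlap (1.83 ± 0.11, adjusted p = 6.14e-08, edgeR; 80.1% of all genes passed). A Npy2r transcript was found in 9.73% ± 2.25 (SD, n = 7) of these cells and in 1.97% ± 0.84 of the Opalin cells, which are oligodendrocytes, at median depths of 234 and 164, and in 8.43% and 2.62% after thinning. Npy2r was lower with Opalin (-1.30 ± 0.15; 77.1% of all genes passed), Pdgfra (-1.74 ± 0.16; 79.1%), Gpr17 (-1.43 ± 0.20; 74.4%) and Laptm5 (-0.92 ± 0.12; 64.3%). The level in Aqp4 cells was above that of vascular cells in every section and overlapped with that of the VGLUT2 class, whose astrocyte transcripts are given above, and the part of astrocyte transcripts in the VGLUT2 level was not tested beyond the repeat in cells with few of them. In vascular cells none of the 5 markers passed for Npy2r, and Ramp3 was lower with Acta2 (-1.21 ± 0.17; 77.7% passed), Pln (71.6%), Dcn (88.6%) and Igf2 (86.1%); with Cspg4 (42.6%) it did not pass.

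The 11432 cells with both glutamate transporters were high in Rxfp1, at 0.920, 1.11 and 1.52 transcripts per cell in the lowest, median and highest section, and 877 cells with at least 5 transcripts carried 85.2% of it. Their median depth was 601 transcripts, and they entered no test between classes. Rxfp1 was higher among them with Neurod6 (1.11 ± 0.12, adjusted p = 9.66e-05, edgeR; 61.0% of all genes passed; 0.24 and not passing at 10 transcripts), and lower with Rorb (-1.68 ± 0.19; 59.3% passed), Calb1 (-2.02 ± 0.27; 60.5%) and C1ql2 (-2.96 ± 0.30, 6 sections; 69.7%). Ramp3 among them was higher with Necab1 (2.60 ± 0.42; 25.8% passed), Foxp2 (3.70 ± 0.50, 6 sections; 33.0%) and Calb1 (1.75 ± 0.45) and lower with Neurod6 (-2.41 ± 0.72) and, like Rxfp1, with C1ql2 (-3.45 ± 0.68, adjusted p = 0.00132). At 10 transcripts of Foxp2 Rxfp1 was -0.72, against 0.39 ± 0.28 at 5. These marker groups in cells with both transporters were added after the data were seen.

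Within a class, cells with at least 2 transcripts of one of the 4 genes were then compared with cells that had none. The gene itself was left out of the test, and the counts were scaled because positive cells are deeper.

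**Figure D4:**
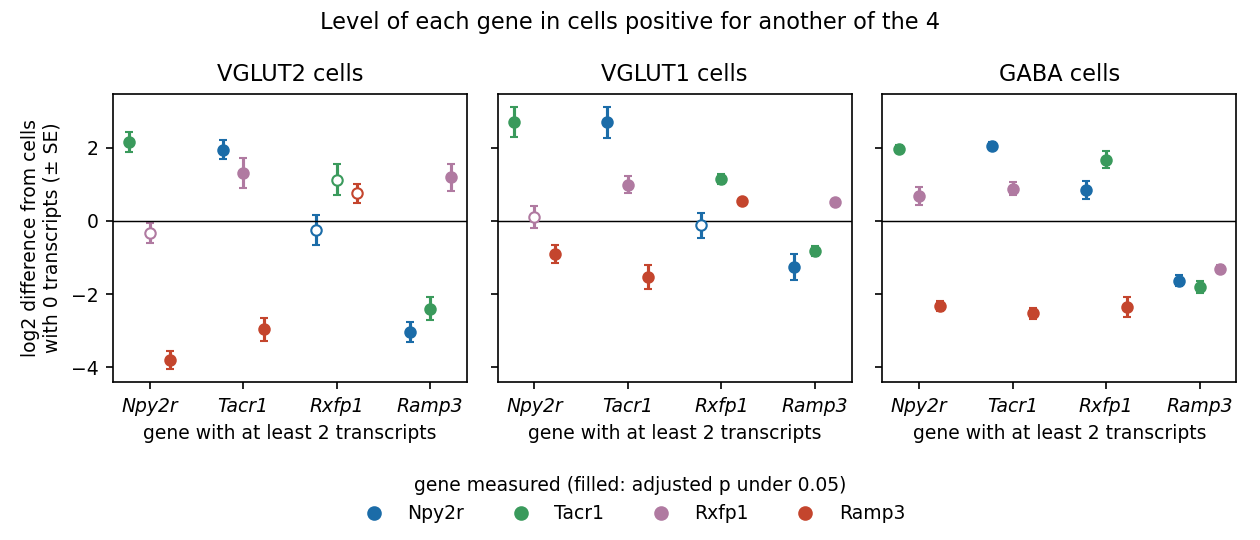
Log2 difference (± SE, edgeR) of each of the other 3 genes between cells with at least 2 transcripts of the gene on the horizontal axis and cells with 0, in VGLUT2, VGLUT1 and GABA cells; filled points have adjusted p under 0.05. Tacr1 and Npy2r are each higher in cells positive for the other, by 1.95 to 2.71, and Ramp3 is lower in cells positive for either in all 3 classes.

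Npy2r and Tacr1 transcripts were found together in VGLUT2 and GABA cells, and in VGLUT1 cells at a Tacr1 level whose class value is read as background. In Npy2r-positive VGLUT2 cells Tacr1 was 0.464 to 2.19 transcripts per cell by section against 0.0945 to 0.283 in cells without Npy2r (2.15 ± 0.27, adjusted p = 8.98e-06, edgeR; 65.3% of all genes passed). In GABA cells the values were 0.979 to 1.60 against 0.223 to 0.291 (1.97 ± 0.10, adjusted p = 8.82e-08; 75.7% passed), and in VGLUT1 cells 0.0321 to 0.373 against 0.0188 to 0.0235 (2.71 ± 0.40, adjusted p = 0.000744; 46.3% passed). The ranges did not overlap in any of the 3 classes. As counts of cells, 76 of 369 Npy2r-positive VGLUT2 cells (20.6%) had at least 2 Tacr1 transcripts, against 4.36% of cells without Npy2r, at median depths of 453 and 429. In GABA cells it was 942 of 4483 (21.0%) against 4.40%, at depths of 488 and 370, and higher in 7 of 7 sections. In VGLUT1 cells it was 25 of 1298 (1.93%) against 0.241%, at depths of 588 and 436, and higher in 6 of 7 sections.

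Ramp3 was lower in cells positive for Npy2r or Tacr1. In Npy2r-positive VGLUT2 cells it was 0 to 0.169 transcripts per cell by section against 0.572 to 2.20 (-3.80 ± 0.25, adjusted p = 4.06e-08, edgeR), and 10 of 369 cells (2.71%) had at least 2 transcripts against 24.9%. In Tacr1-positive VGLUT2 cells Ramp3 fell by 2.96 ± 0.32 on the log2 scale (adjusted p = 2.13e-05; 70.7% of all genes passed). In GABA cells Ramp3 fell by 2.33 ± 0.14 with Npy2r (adjusted p = 1.84e-07, edgeR), by 2.52 ± 0.15 with Tacr1 (84.5% passed) and by 2.36 ± 0.27 with Rxfp1 (56.4% passed). In VGLUT1 cells the falls were 0.90 ± 0.26 with Npy2r and 1.53 ± 0.33 with Tacr1 (54.7% passed). Sst cells as a group were high in Ramp3, Npy2r and Tacr1, yet over the GABA class only 106 of the 4483 Npy2r-positive cells had at least 2 Ramp3 transcripts.

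Rxfp1 went with Tacr1, though not in every comparison, and with Ramp3 in VGLUT1 cells and in part in VGLUT2 cells. Tacr1-positive cells were higher in Rxfp1 by 1.32 ± 0.41 in VGLUT2 (adjusted p = 0.0136, edgeR), 0.99 ± 0.23 in VGLUT1 (adjusted p = 0.00194) and 0.88 ± 0.17 in GABA cells (adjusted p = 0.000695). In VGLUT1 cells the Tacr1 level of the class is read as background. The reverse comparison, Tacr1 in Rxfp1-positive cells, passed in VGLUT1 and GABA cells and not in VGLUT2 cells (1.13 ± 0.42, adjusted p = 0.116). With Ramp3 the sign depended on the class. Rxfp1-positive VGLUT1 cells were higher in Ramp3, at 0.452 to 0.558 transcripts per cell by section against 0.258 to 0.385 (0.54 ± 0.07, adjusted p = 5.08e-05, edgeR; 87.2% of all genes passed). In VGLUT2 cells the difference of 0.75 ± 0.25 did not pass (adjusted p = 0.0768; 7.48% passed), while Rxfp1 was higher in Ramp3-positive cells by 1.19 ± 0.36 (adjusted p = 0.0186), in 4 of 7 sections. As counts of cells, 48.9% of Rxfp1-positive VGLUT2 cells had at least 2 Ramp3 transcripts against 21.7%, at median depths of 559 and 421. In cells with both transporters, which were not tested here, the shares were 8.16% and 8.20%, at median depths of 614 and 596.

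The panel genes that most resembled each of the 4, named by a fixed rule (the 5 with the largest ratio among those that passed and were higher in every section), were shared by Npy2r and Tacr1 in VGLUT2 cells. Sema3a, a guidance ligand, Rprm, Meis2, a homeobox factor, and Mdga1, a synaptic adhesion protein, were on both lists, with Sema3a at 2.51 ± 0.17 in Npy2r-positive and 2.25 ± 0.19 in Tacr1-positive cells and Meis2 at 2.11 ± 0.15 and 2.35 ± 0.12, in 7 of 7 sections each. Prox1 and Ramp3 were among the 3 lowest of both. The list of Ramp3 held Gpr4, a proton-sensing receptor (3.18 ± 0.22; 54.8% of all genes passed), Necab1 (2.74 ± 0.19), Rreb1, Pamr1 and Tox, and its 3 lowest were Ndst4, Sema3a and Meis2. Rxfp1 had only 4 genes that met the rule in VGLUT2 cells, Necab1 (1.14 ± 0.30), Foxp2 (1.06 ± 0.25), Enc1 and Kcnh5.

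In GABA cells the list of Npy2r was Chodl (2.01 ± 0.12), Tacr1, Cbln4, Ndst4 and Adarb2, and that of Tacr1 was Chat (4.5 ± 0.08), Cd44, Sncg, Chodl (2.41 ± 0.10) and Npy2r. Rxfp1 shared Chat (3.71 ± 0.23), Sncg and Cd44 with Tacr1 and added Vip (2.51 ± 0.18) and Igf1. Ramp3 went with Pln (4.59 ± 0.31; 78.4% of all genes passed), Pvalb (3.85 ± 0.08), Fign, Cplx3 and Serpinf1, and Ramp3 was itself the lowest gene in cells positive for each of the other 3. In VGLUT1 cells Npy2r and Tacr1 again shared genes, Slc44a5 (2.89 ± 0.20 and 2.89 ± 0.17) and Ndst4. The largest ratio in Tacr1-positive VGLUT1 cells was that of Spag16 (4.23 ± 0.24). Ramp3 in VGLUT1 cells went with Foxp2 (2.54 ± 0.05, with 80.4% of genes passing), Syt6, Arhgap25, Sla and Nxph3, and Rxfp1 with Ccn2 (2.95 ± 0.04), Tmem163, Cplx3 (2.09 ± 0.04), Cwh43 and Sema5b. Sign and rank apply to this panel of 297 genes, and no common control of these genes was tested.

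Posterior sections were compared with anterior sections within each class (edgeR on sums per section, no block, adjusted over 297 genes). With few sections per position, a difference that does not pass does not show equal levels. None of the 4 genes passed in any class in this fit. Few genes did: 0% of all genes passed in VGLUT2, VGLUT1 and GABA cells and 0.337% in vascular cells, where the single gene was Ppp1r1b, lower in posterior sections. At an unadjusted p under 0.05 the counts were 2, 39, 35 and 42 genes in VGLUT2, VGLUT1, GABA and vascular cells, and DESeq2 called 0, 18, 10 and 11.

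The largest of the 16 differences was that of Npy2r in VGLUT1 cells. Its level was 0.0307 and 0.0364 transcripts per cell in the anterior, 0.0294 and 0.0419 in the intermediate, and 0.20, 0.167 and 0.0549 in posterior replicates 1, 3 and 4. All 3 posterior sections were above all 4 others, but replicate 4 was close to them. The difference was 1.95 ± 0.53 (adjusted p = 0.177, edgeR), with an adjusted p of 0.00484 by DESeq2 and of 0.00162 without posterior replicate 4 (2.36). With the slide as a term it was 2.48 (adjusted p = 0.226). The contrast of this change between VGLUT1 and GABA cells was 1.55 ± 0.64 (adjusted p = 0.992, edgeR) and that between VGLUT2 and VGLUT1 cells -1.57 ± 0.65 (adjusted p = 0.765); 0% of all genes passed in these contrasts, with 9 and 13 genes at an unadjusted p under 0.05.

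Ramp3 was 0.555 and 1.10 transcripts per cell in anterior and 1.60, 0.719 and 2.07 in posterior VGLUT2 cells, which overlapped (0.71 ± 0.46, adjusted p = 0.993, edgeR), and 0.394 and 0.418 against 0.877, 0.275 and 0.770 in GABA cells (0.58 ± 0.42, adjusted p = 0.621). Posterior replicate 3 was the lowest posterior section in both classes. Rxfp1 in VGLUT2 cells differed by 0.50 ± 1.06 (adjusted p = 0.993), the widest error of the 16, and Tacr1 by 0.39 ± 0.40.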

How the data were processed

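For each section the authors deposited raw counts of transcripts by gene and by segmented cell; decoding, segmentation and cell filters are not given in the sources. Per the submitters' processing notes, Seurat was used (version not stated). Control probes were left out of library sizes. From the counts, cells were classed by their own transcripts and counts were summed per section and class. Sums were tested with edgeR 4.0.16 (limma 3.58.1, R 4.3.3; filterByExpr, TMM, glmQLFit and glmQLFTest, Benjamini-Hochberg over all genes tested at 0.05), with the section as a block between classes and marker groups and no block between positions. The SE is the log2 difference divided by the square root of F. DESeq2 1.42.0, other thresholds, scalings and classes, and each section left out were alternatives. Doublets were not called, so a cell that met several rules may hold more than 1 cell.

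The 4 genes, the class rules, the marker genes and the gene lists were chosen with earlier results of these data known. For each gene and class, the named genes are the 5 higher with the largest ratio and the 3 lowest among those that passed and moved the same way in every section, with a level of at least 0.2 transcripts per cell on the higher side. The count fits were tested on simulated counts with a spread set in advance. Of 100 genes changed 1.5-fold, the class fit recovered 98% and the posterior against anterior fit, run for VGLUT2 cells, 35%. At a 2-fold change they recovered 100% and 95%. The simulated spread was not taken from these data, and no further differences between sections were simulated. In the data, the SEs between positions in VGLUT2 cells were 0.40 to 1.06 for the 4 genes. The recovered shares therefore do not give the power of the fits at the spread of these sections.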

Additional observations from a re-analysis of the deposited data

Results flagged for a closer look

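Ramp3 in Rxfp1-positive cells moved in opposite directions in 2 classes. It was higher by 0.54 ± 0.07 on the log2 scale in VGLUT1 cells, in 7 of 7 sections, and the difference in GABA cells was -2.36 ± 0.27, lower in 7 of 7 sections (edgeR). The difference between the classes was not tested.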

How the results depend on the processing

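Of 510 class values under alternatives, 483 were counted as unchanged, as were 314 of 334 position values and 434 of 496 marker values. A difference was unchanged if it kept its side of the threshold and, where it or the main value passed, its direction. Some differences that passed in neither setting changed sign and still counted as unchanged. The class and position values include counts of genes called, which were unchanged if close to the main count. On thinning, 18 of 28 shares of cells moved by more than 1 SD. Where a value changed, the cause was not tested. Npy2r between VGLUT2 and VGLUT1 cells lost its call in most of its changed values: 0.55 with DESeq2, 0.63 with the number of cells as library size, -0.033 with looser thresholds, 0.13 in cells with few foreign transcripts, 0.47 with no section block, and 0.46 to 1.10 on leaving out each section. With overlapping classes, only Rxfp1 between GABA and vascular cells passed of the values that changed: Ramp3 was 0.27 between GABA and vascular and -0.16 between VGLUT1 and vascular cells (0.29 with stricter thresholds), Rxfp1 was 0.47 between GABA and vascular and 0.12 between VGLUT2 and VGLUT1 cells, and Tacr1 was -0.052 between VGLUT2 and GABA cells (-0.037 with stricter thresholds). In neurons with few foreign transcripts, set against unfiltered vascular cells where these enter, both vascular differences came to pass and the other 3 did not: Rxfp1 was 1.10 between GABA and vascular and -0.54 between VGLUT2 and VGLUT1 cells, Ramp3 -0.25 between VGLUT1 and GABA, Npy2r -0.95 between VGLUT2 and GABA and 1.01 between VGLUT1 and vascular cells. With the number of cells as library size, both came to pass: Rxfp1 was 1.36 between GABA and vascular and Npy2r 1.45 between VGLUT1 and vascular cells; this scaling moved the median of all genes against vascular cells to 1.01 for GABA, 1.02 for VGLUT1 and 1.07 for VGLUT2, and the share of calls on the higher side from 50.8%, 49.1% and 53.0% to 76.8%, 74.0% and 70.8%. Npy2r between VGLUT2 and vascular cells was 0.48 with looser thresholds and did not pass. Marker values reversed for Tacr1 with Penk in GABA cells (-0.27, library size), Rxfp1 with Fezf2 in VGLUT1 cells (-0.0072, library size; -0.33 at 10 transcripts), Rxfp1 with Foxp2 in cells with both transporters (-0.72 at 10 transcripts), and, in cells of no class with library size, Tacr1 with Aqp4 (-0.28) and Ramp3 with Laptm5 (-0.046).

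Between positions, DESeq2 called 10 genes in GABA, 18 in VGLUT1 and 11 in vascular cells, with Npy2r in VGLUT1 cells at 1.95 and 1.60 to 2.36 on leaving out each section, where a lone anterior section is assumed to vary like the others. Overlapping classes gave 3 genes in GABA and 0 in vascular cells, looser thresholds 2 and the number of cells 0 in vascular cells, and the slide as a term 1 in VGLUT1 and 0 in vascular cells. On leaving out each section VGLUT1 cells gave 0 to 10 genes, and the contrasts of position between classes 0 to 1 (VGLUT1 and GABA), 0 to 2 (VGLUT2 and GABA) and 0 to 1 (VGLUT2 and VGLUT1), above 0 without posterior replicate 3.

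Anterior and posterior sections share only replicate number 1, and the labels do not say that a number marks an animal, so the numbers were not taken as pairing; deviations of that pair correlated at 0.17 to 0.36 by class. With the replicate block, which leaves 1 residual degree of freedom, 2 genes were called in GABA, 76 in VGLUT1, 69 in VGLUT2 and 28 in vascular cells, with Npy2r in VGLUT1 at 2.52, Ramp3 and Rxfp1 in VGLUT2 at 1.24 and 0.95, and Ramp3 in vascular cells at 0.75, all of which passed. With sums per replicate number and the replicate block, Npy2r was 0.39 between VGLUT2 and VGLUT1 and 0.79 between VGLUT1 and vascular cells, of which the latter passed.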
